A study of Mus musculus with 28 samples.

Results

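Among all stretches of mouse chromatin that gave an ATAC-seq peak in these cells, 1992 regions had a peak in none of the 4 fibroblast libraries and in all 24 libraries made later in reprogramming. They are called newly open regions here. Overlapping peaks (1 bp or more, chromosomes 1 to 19 and X) of all 28 libraries were merged into 172177 regions, and a library counted as calling a region if any of its peaks overlapped the region. A newly open region was called in 0 of 4 fibroblast, 12 of 12 day 5 and 12 of 12 day 10 libraries. The 1992 regions were 1.81% of the 109954 regions called in at least 2 libraries and 18.6% of the 10711 regions called in all 24 later libraries. Calls in all 28 libraries chose them, so their absence from fibroblasts and their presence at both later days are a description, without a test. An uncalled region was not shown to be closed, only to lie below the authors' peak threshold in that library.

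All cells derived from Tet2-/- mouse embryonic fibroblasts (MEFs; embryonic day 12.5; strain background V6.5 129XBI/6) that carried the OKSM reprogramming factors under doxycycline control with the rtTA activator. The MEF group (4 libraries) was untreated and, per the labels, not sorted. The other 6 groups of 4 libraries were transduced with a pMXs retrovirus that was empty, carried Tet2-WT or carried Tet2-E, named a stalling mutant in the series, and were collected at day 5 or day 10 in 2i/LIF medium with doxycycline. These cells were grown under low oxygen on Mito-C-treated feeder MEFs and sorted on SSEA1-RFP, so transduction, medium, feeders and sorting all separate them from the MEF group and cannot be told apart from time.

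In ATAC-seq, a transposase inserts adapters into DNA that is not covered by nucleosomes, so active promoters and enhancers appear as peaks. OKSM stands for Oct4, Klf4, Sox2 and c-Myc. Oct4, Sox2 and Klf4 are known to bind enhancers that are closed in fibroblasts, while the enhancers of the fibroblast programme are shut down. TET enzymes oxidise 5-methylcytosine in steps, and enhancers that open in reprogramming commonly lose this mark. A stalling Tet2 stops after the first oxidised base, which separates that product from the later ones. SSEA1 is a surface glycan that appears on mouse cells on their way to pluripotency. In bulk cells, a weaker peak in fewer cells and a weaker peak in every cell cannot be told apart.

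The lists held 27918 to 72332 peaks, and the authors' −log10 q of the weakest peak was 2.00 to 2.03 in every library. Read totals were not used here. Relative depth was inferred from the lists as the genome background pileup, the commonest background value recovered for the peaks of a list. It was 0.394 to 0.660 in MEFs, 0.746 to 1.04 at day 5 and 0.361 to 0.768 at day 10, with means of 0.503, 0.865 and 0.522. The labels do not say that replicates were separate cultures, so the p-values refer to the spread among these libraries, which could be technical. Genes and sequences at the regions were not used here, and the cell type labels were therefore not checked against marker genes.

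The newly open regions were moderately wide and lay on all 20 chromosomes. Their median width was 562 bp (148 to 1301), between the 278 bp of all regions called in at least 2 libraries and the 731 bp of the 7740 regions called in all 28. Together they covered 1147 kb. The nearest region called in all 28 libraries lay at a median distance of 91624 bp, and 6 newly open regions (0.301%) had such a region within 1 kb. Among the 45019 regions called in at least 2 libraries and in no MEF library, the median distance was 89119 bp and the share within 1 kb 1.40%. Among the 3475 regions called in no MEF and all 12 day 5 but not all day 10 libraries, the share was 0.576%. At a median of 10466 bp lay the nearest region called in at least 1 MEF library and in at least 2 libraries in all. Within 1 kb, 5.07% of newly open regions had such a neighbour, against 9.003% of those 45019 regions and 5.78% of those 3475. A region is wider where more libraries extend it, so the shares near a neighbour also depend on how regions were merged.

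By chromosome, newly open regions were counted as a share of the regions called in at least 2 libraries. The share ran from 1.05% on chromosome X (26 of 2466) to 2.08% on chromosome 3 (129 of 6207). Most lay alone. The median distance to the nearest other newly open region was 287004 bp, and 56 (2.81%) had one within 10 kb. Of all regions called in at least 2 libraries, a close 2.56% had a newly open region that near. Of the fixed windows of 100 kb, 1684 held 1 newly open region, 131 held 2, 14 held 3 and 1 held 4.

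The window with 4 was on chromosome 3 (86600001 to 86700000, mm9), where the regions spanned 43.0 kb. They were chr3:86648974-86649366, chr3:86661708-86662350, chr3:86666882-86667475 and chr3:86691441-86691932. Each stood near the middle or the lower part of the strength order of its library, with median rank percentiles of 27.3, 55.3, 23.7 and 48.5 over the 24 libraries. Of the windows with 3, the strongest was on chromosome 7 (103300001 to 103400000), with median rank percentiles of 85.7, 42.1 and 83.0 for the regions starting at 103317370, 103333533 and 103353279. Next came chromosome 1 (134100001 to 134200000), with 67.8, 61.9 and 24.99 for the regions starting at 134118792, 134161858 and 134178216. Rank percentile here is the position of a region's strongest peak when the authors' fold (summit pileup over local background, with 1 added to each) is ranked over the 10711 regions within a library, with 100 the strongest. A fold is the authors' value of a peak in its own list, and so the tests between libraries used only ranks within a library. Median folds at day 5 and day 10 are given beside the ranks as a description. They are medians over libraries of different depth, and the part of depth in them was not tested.

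Peak summits in the newly open regions were less sharply placed than in constantly open ones. The summits of single libraries lay within 50 bp of the region's median summit in 61.7% of cases, against 71.4% in regions called in all 28 libraries. The median summit moved little between the days. It shifted by a median of 19 bp from day 5 to day 10 (13 bp in regions called in all 28), and by more than 100 bp in 77 newly open regions (3.87%, against 4.83%). In 603 of the 1992 (30.3%), every later library placed a single peak. Broken peaks were somewhat more frequent at day 10. There 13.8% ± 2.55 of the newly open regions held at least 2 peaks in a library, against 9.77% ± 1.54 at day 5. Values are mean ± SD over 12 libraries at each day, and the ranges of 10.1% to 17.2% and 7.28% to 13.1% overlapped. Single and broken peaks were not counted in other regions, so these shares cannot be called particular to newly open regions.

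The rule set a sharp boundary across a graded series. Of 5467 regions called in no MEF and in all 12 day 5 libraries, 1992 (36.4%) were called in all 12 day 10 libraries, 800 in 11, 596 in 10 and 483 in 9. At the other end, 290 were called in at most 3 and 15 in none. In the reverse direction, the 1992 made up 85.0% of the 2343 regions called in no MEF and in all 12 day 10 libraries, so few regions were found in every day 10 library without being found in every day 5 library. Just outside the rule, the 800 regions missed by a single day 10 library had a median fold of 8.21 at day 5 and 7.18 at day 10, against 9.02 and 8.21 for the newly open regions. The 152 missed by a single day 5 library had 6.98 and 7.54, and the 248 called in a single MEF library had 8.61 and 8.12. These folds are the authors' values within each list, described without a test.

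How strong a region was at day 5 went with whether all day 10 libraries called it. When the 5467 regions were split into 4 parts of equal size by their median fold at day 5, 14.3% of the weakest part (fold 4.00 to 6.99) were called in all 12 day 10 libraries. The share was 23.4% in the next part, 38.6% in the part above it and 69.5% in the strongest (fold 9.14 to 14.8). Conversely, 174 regions of the weakest part and 1 of the strongest were called in at most 3 day 10 libraries. The mean background pileup was 0.865 at day 5 and 0.522 at day 10, and its part in this gradient was not tested.

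**Figure D1:**
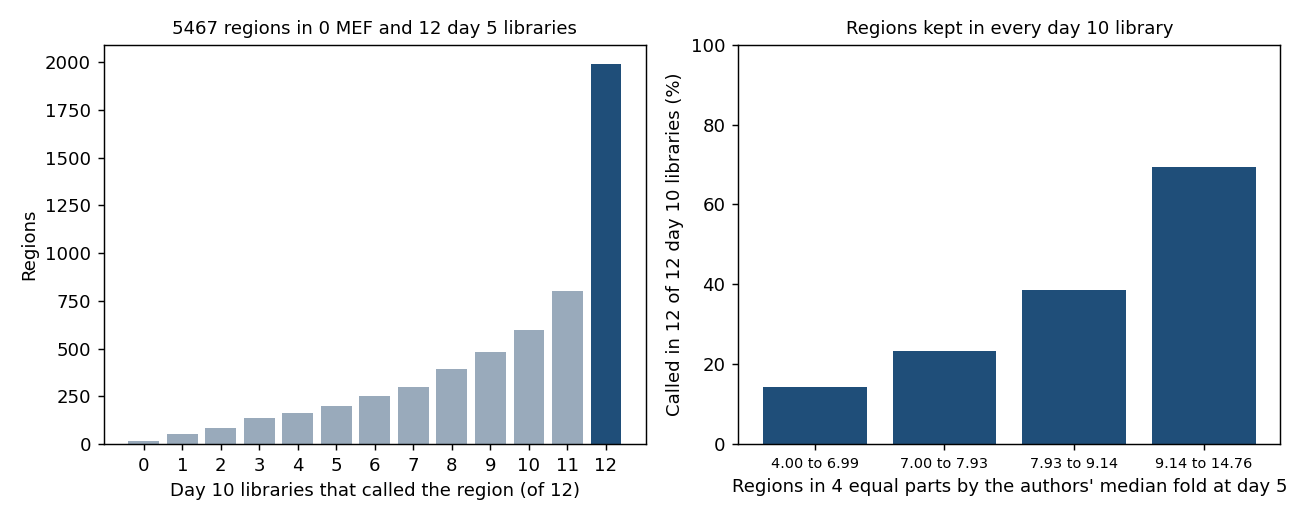
Left, the number of day 10 libraries (0 to 12) that called each of the 5467 regions called in no MEF and all 12 day 5 libraries, with the 1992 newly open regions as the dark bar; the bars rise from 15 regions at 0 to 800 at 11. Right, the percentage called in all 12 day 10 libraries in each of 4 equal parts by the authors' median fold at day 5, rising from 14.3% to 69.5%.

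A few libraries did most to keep neighbours outside the rule. In all, 952 regions called in no MEF library were called in 23 of the 24 later libraries. The library that missed them was day 10 Tet2-E replicate 4 for 199 regions (20.9%), day 10 Tet2-WT replicate 4 for 132 (13.9%), day 10 empty vector replicate 4 for 129 (13.6%) and day 10 Tet2-E replicate 3 for 93 (9.77%). These 4 libraries had the lowest background pileups of the 24, namely 0.361, 0.395, 0.420 and 0.466. Day 5 libraries missed 2 to 38 regions each, and day 10 Tet2-E replicate 1, the deepest at day 10 (0.768), missed 9.

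**Figure D2:**
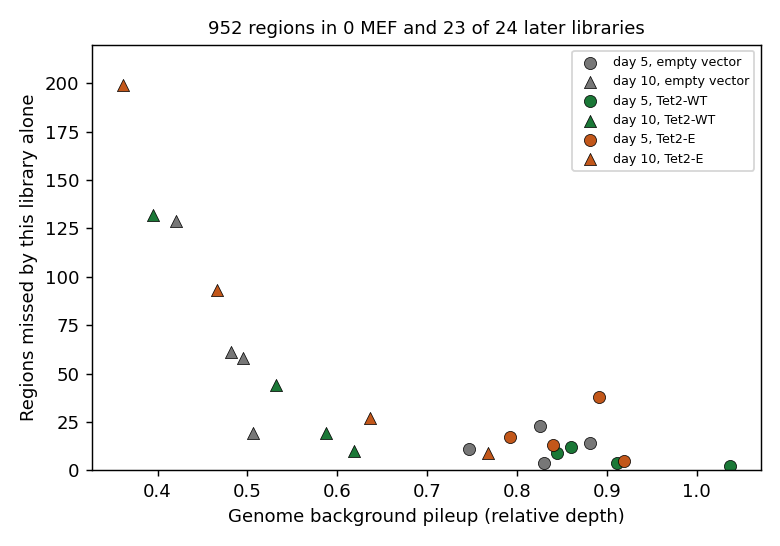
Each point is a library, with its genome background pileup (relative depth) on the x axis and the number of regions that it alone missed of the 24 later libraries on the y axis. Circles are day 5 and triangles day 10, coloured by vector; the 3 highest points, at 129 to 199 regions, are the day 10 libraries numbered 4.

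Applied within a single vector, with 4 libraries at each day, the same rule gave 3259 regions for the empty vector, 3849 for Tet2-WT and 3161 for Tet2-E. The 1992 regions made up 61.1%, 51.8% and 63.0% of these. Regions that met the rule in that vector and in no other numbered 481 (14.8%), 916 (23.8%) and 448 (14.2%). Tet2-WT thus gave the most, and its 8 libraries also had the highest mean background pileup, 0.723 against 0.648 with the empty vector and 0.709 with Tet2-E. Its part in the counts was not tested.

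In strength, the newly open regions stood near the middle of the 10711 regions at day 5 and below it at day 10. Their median rank percentile per library was 45.2 to 55.0 at day 5 (mean 49.1 ± 2.82) and 35.5 to 48.5 at day 10 (39.6 ± 3.69; SD over 12 libraries). The 2 ranges overlapped through day 10 Tet2-WT replicate 3, at 48.5. The other 11 day 10 libraries lay at 44.4 or lower. Regions called in all 28 libraries had medians of 49.98 to 53.0 at day 5 and 51.9 to 56.2 at day 10. Depth moved with the day: 11 of the 12 day 10 libraries were shallower than every day 5 library. The deepest day 10 library (Tet2-E replicate 1, background 0.768) had a median rank percentile of 39.7, and the shallowest day 5 library (empty vector replicate 2, 0.746) had 49.1. Within day 5, the deepest library (Tet2-WT replicate 1, 1.04) had the highest value, 55.0, and the lowest, 45.2, was at 0.792 (Tet2-E replicate 3). Within day 10, the highest value, 48.5, was at 0.532. The part of depth in the rank difference was not tested.

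Peak width changed alongside. The median peak in a newly open region was 326 to 388 bp wide at day 5 and 189 to 312 bp at day 10. Divided by the median peak width in the regions called in all 28 libraries, as a measure of how wide peaks are in that library, it was 1.02 to 1.17 at day 5 (1.10 ± 0.0479) and 0.878 to 0.975 at day 10 (0.935 ± 0.0391; SD, n = 12 each). The 12 day 5 and 12 day 10 libraries did not overlap in this ratio. The ratio was 0.960 in the deepest day 10 library (background 0.768) and 1.15 in the shallowest day 5 library (0.746), whose median peak widths in regions called in all 28 libraries were 325 bp and 283 bp. The part of depth in the width difference was not tested. Between vectors, the mean ratio differed by at most 0.00628, well under the SD of 0.0474 within groups.

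**Figure D3:**
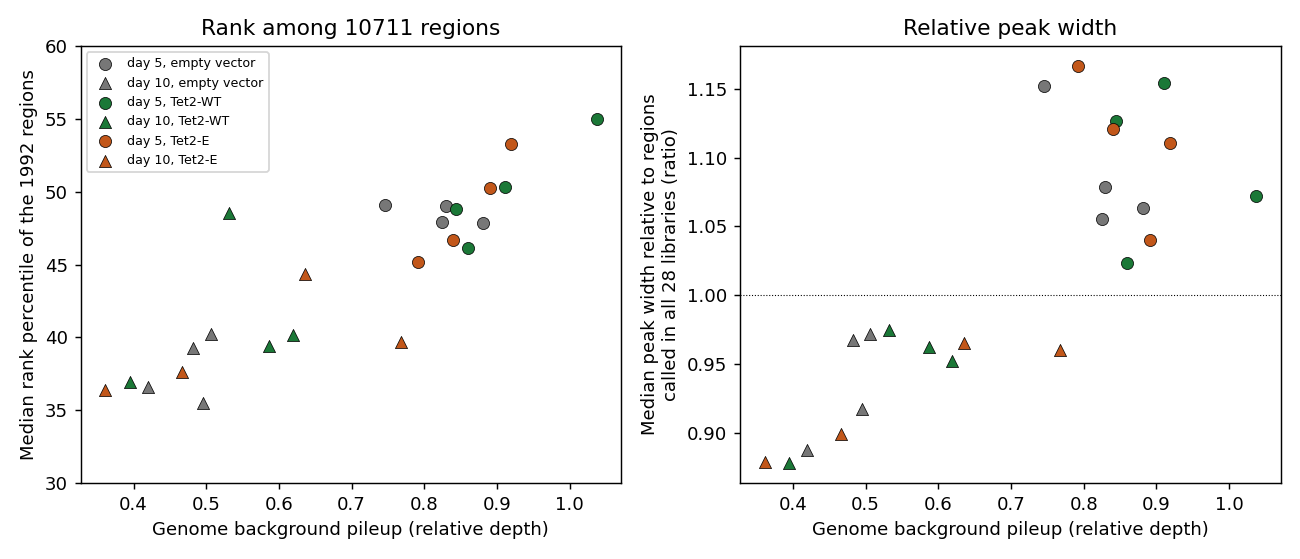
Genome background pileup (relative depth) of each later library on the x axis against, left, the median rank percentile of the 1992 newly open regions among 10711 regions and, right, their median peak width relative to regions called in all 28 libraries. Circles are day 5 and triangles day 10, coloured by vector; on the right the day 10 libraries all lie below a ratio of 1 and the day 5 libraries all above it.

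The share of the newly open regions found among the strongest peaks of a list was also measured. When every list was taken down to its 27809 strongest peaks, the length of the shortest list, 94.6% ± 1.498 of the newly open regions were kept at day 5 and 96.1% ± 1.98 at day 10 (SD over 12 libraries). The rule asked for a call in every list, so the shortest, day 10 Tet2-E replicate 4, keeps 100% by construction and other short lists keep most. With the 20000 strongest peaks, 86.8% were kept at day 5 and 86.5% at day 10. With the 10000 strongest, 61.1% and 55.2% were kept.

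Day 10 was compared with day 5 region by region, to ask which newly open regions gained or lost strength relative to the rest of the open chromatin. The ranks were turned into normal scores, in which 1 unit is about 1 SD of the regions of a library, and fitted with limma over all 10711 regions and 6 groups. Of all regions tested, 4.17% were called lower and 2.35% higher at day 10 (adjusted p under 0.05). Of the 1992 newly open regions, 276 (13.9%) fell and 51 (2.56%) rose, so the share that fell was above the background and the share that rose was close to it. The median difference was −0.24 over the newly open regions and 0.04 over all regions, and 1381 (69.3%) of the newly open regions had a difference below 0. The other 1665 (83.6%) did not pass the test. With the log2 background pileup as a covariate, 1 newly open region was called higher and 1 lower (0.0502% of the newly open regions each). Of all 10711 regions, 3 (0.028%) were called higher and 2 (0.0187%) lower. The median difference over the newly open regions was −0.13. In most regions the day and the depth therefore cannot be told apart. When the ranks covered 19063 regions, those that 20 or more of the 24 libraries called, 222 newly open regions (11.1%) were called lower and 93 (4.67%) higher, against 6.73% and 5.22% of all regions.

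The regions called in all 24 later libraries were also grouped by how many MEF libraries had called them. The median difference was −0.24 for 0 MEF libraries, −0.06 for 1, 0.04 for 2, 0.15 for 3 and 0.08 for 4. Over the same steps, the share called lower at day 10 was 13.9%, 10.5%, 6.75%, 3.13% and 1.46%. The share called higher did not follow these steps, with 2.56%, 5.24%, 6.35%, 4.59% and 1.94%. In rank percentile, regions called in 3 MEF libraries moved from a median of 30.9 to 34.2, while newly open regions moved from 49.0 to 38.4. The groups at 1 to 3 MEF libraries held 248, 252 and 479 regions, and the trend over the groups was not tested.

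**Figure D4:**
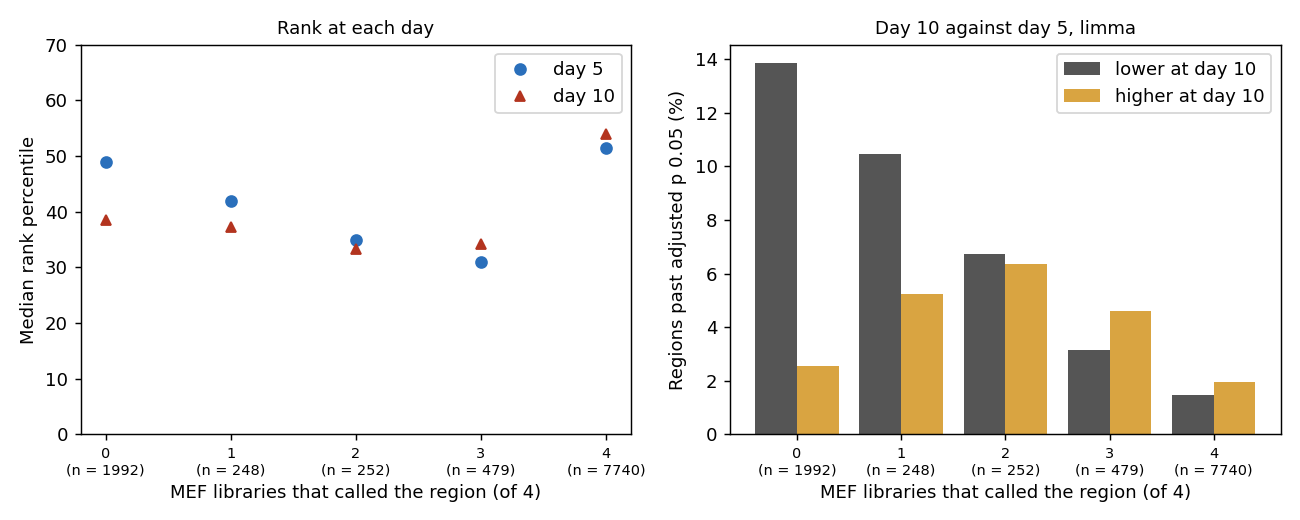
Regions called in all 24 later libraries, grouped by the number of MEF libraries (0 to 4) that called them, with 0 the newly open regions. Left, median rank percentile at day 5 and day 10; right, the percentage past an adjusted p of 0.05 in limma, lower (grey) or higher (gold) at day 10, where the lower share declines from 13.9% at 0 to 1.46% at 4.

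The 276 regions that fell were strong ones at day 5. Their median rank percentile went from 67.6 to 32.7 and their median fold from 10.5 to 7.73, with differences of −2.33 to −0.67. They lay on all 20 chromosomes, with 27 of the 129 newly open regions on chromosome 3 and 7 of the 26 on chromosome X. The 51 that rose were weak at day 5, with a median rank percentile of 18 against 52.4 at day 10 and differences of 0.67 to 2.29. They lay on 17 chromosomes, with 0 of the 26 on X. The counts by chromosome were not tested. Widths were alike, 556 bp and 520 bp at the median. The direction was the same in all 3 vectors for 274 of the 276 and for 51 of the 51, and since all 3 vectors entered the fit that chose them, this is a description. The test picked these regions for a difference between the days, so their ranks at each day carry no test of their own.

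Of the regions that rose, chr19:41088064-41088429 (366 bp) had the smallest p. Its rank percentile was 0.686, 5.91 and 48.2 at day 5 (lowest, median and highest of 12) and 37.0, 84.4 and 93.2 at day 10. Only day 10 empty vector replicate 4 (37.0) reached down into the day 5 range, and the other 11 day 10 libraries were at 73.9 or higher. The difference was 2.29 ± 0.27 (SE; limma adjusted p = 7.76e-06), and by vector it was 2.13 (empty), 2.11 (Tet2-WT) and 2.61 (Tet2-E). Within its own lists the median fold was 5.91 at day 5 and 11.3 at day 10.

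The region chr6:42323062-42323583 was the only newly open region whose day 10 ranks all lay above its day 5 ranks. At day 5 its rank percentile was 0.658, 5.10 and 17.7, and at day 10 it was 21.4, 56.4 and 82.4. In the fit it rose by 1.78 ± 0.23 (limma adjusted p = 1.88e-05). Over all 10711 regions, 0.00934% were higher at day 10 with no overlap and 0.0187% were lower with no overlap.

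Next by p came chr5:91467620-91468061, which rose from a median percentile of 7.70 to 54.0, and chr19:55345876-55346300, from 29.5 to 74.3. They were followed by chr15:9142547-9143324, from 5.80 to 48.6, and chr3:37622749-37623619, from 8.47 to 57.3. All 4 were near the bottom or in the lower part of the order at day 5. In each of them the ranks of the days overlapped; at chr5 and chr3 a single day 5 library (Tet2-E replicate 2 at 54.8, and empty vector replicate 2 at 58.8) stood far above the other 11.

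Of the regions that fell, chr2:137946688-137947140 had the smallest p. It was among the strongest at day 5, with rank percentiles of 75.9, 91.2 and 98.4 (lowest, median and highest of 12). At day 10 they were 0.140, 18.9 and 86.7. A single day 10 library, empty vector replicate 4 at 86.7, lay within the day 5 range, and the other 11 were at 40.3 or lower. It fell by 2.33 ± 0.25 (limma adjusted p = 1.12e-06), with differences of −1.78 for the empty vector, −1.98 for Tet2-WT and −3.22 for Tet2-E.

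The region chr1:169396846-169397435 was the only newly open region whose day 10 ranks all lay below its day 5 ranks, with 46.3, 75.4 and 97.1 at day 5 and 0.850, 22.1 and 43.0 at day 10. Its difference was −1.65 ± 0.23 (limma adjusted p = 3.87e-05). On the same chromosome, chr1:51854890-51855441 fell from a median percentile of 85.6 to 18.1. A single day 10 library, Tet2-E replicate 2 at 75.4, lay within its day 5 range, and the other 11 were at 36.6 or lower.

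The remaining named regions that fell were chr15:58673038-58673607 (71.5 to 23.6), chr14:87348916-87349495 (93.3 to 40.4) and chr9:103988034-103988497 (61.3 to 8.22), each given by its median percentile at day 5 and day 10. At chr14 the day 10 libraries were spread widely, from 7.76 to 85.1. With the background pileup as a covariate, none of the 12 regions named for the day comparison passed (limma adjusted p = 0.0646 to 0.819). Their differences kept their sign. They were no smaller for chr19:41088064-41088429 (2.51), chr15:58673038-58673607 (−1.79), chr3:37622749-37623619 (1.65) and chr19:55345876-55346300 (1.37), while that of chr14:87348916-87349495 was −0.50.

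**Figure D5:**
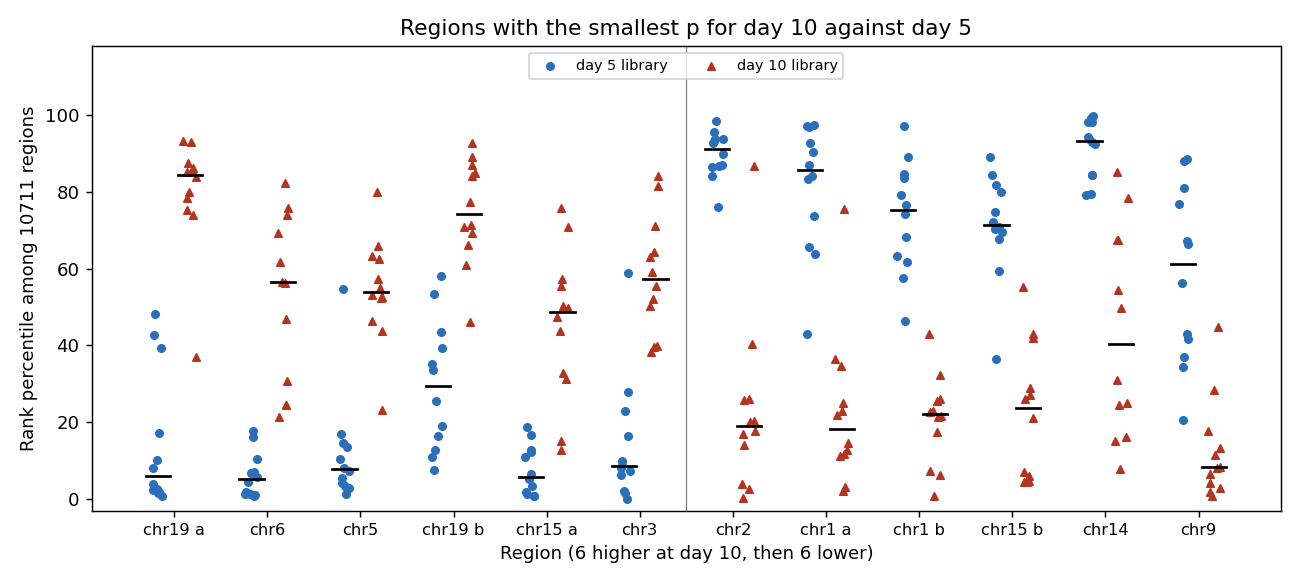
Rank percentile among 10711 regions in each of 12 day 5 (blue circles) and 12 day 10 libraries (red triangles) for the 6 newly open regions with the smallest p that were higher at day 10 and the 6 that were lower; black lines are medians. Where a chromosome has a pair of regions, a is the one at the lower coordinate; the medians run from 5.91 to 84.4 for the first region and from 91.2 to 18.9 for the seventh.

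Of the 10 regions in the 3 crowded windows, chr1:134118792-134119095 passed the test of the days, falling from a median percentile of 90.6 to 39.5 (difference −1.31 ± 0.26, limma adjusted p = 0.00209). It did not pass without the day 10 libraries numbered 3 and 4 (adjusted p = 0.0679) or with the background pileup as a covariate (0.59). Its neighbour at chr1:134178216-134178831, with 36.1 and 8.42, did not pass (limma adjusted p = 0.0813), nor did chr7:103333533-103334302, with 62.2 and 29.2 (0.0602). The chr1 neighbour passed without day 10 Tet2-WT replicate 4 (0.0247) or without day 5 Tet2-E replicate 3 (0.0488). The chr7 region passed without day 5 empty vector replicate 1 (0.0199), day 5 Tet2-E replicate 3 (0.0417), day 10 Tet2-WT replicate 3 (0.022) or day 10 Tet2-E replicate 2 (0.0463), and also when the authors' −log10 p was ranked (0.0268). In the chromosome 3 window, the 4 regions had differences of −0.15, −0.33, 0.44 and −0.50, and none passed when the fold was ranked. With the summit pileup ranked, chr3:86691441-86691932 passed (−0.59, adjusted p = 0.023).

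The 3 newly open regions named next were chosen for the highest median rank over all 24 libraries, so their high ranks at both days are a description. The region chr6:101620434-101621101 had rank percentiles of 90.7, 98.0 and 99.2 at day 5 and 76.5, 90.6 and 98.5 at day 10. At chr9:79678492-79679354 the median was 97.3 and then 94.0, and at chr4:95351266-95351949 it was 96.2 and then 94.9. None of the 3 passed the day comparison with ranks of the fold (limma adjusted p = 0.0968, 0.366 and 0.518). The chr6 region was called lower at day 10 with ranks of the authors' −log10 p (−0.84, adjusted p = 0.00423) and of the summit pileup (−0.90, 0.000216), and the chr9 region with ranks of the summit pileup (−0.71, 0.00851). Over all newly open regions the median rank percentile ran from 0.910 to 97.1 with quartiles at 28.8 and 60.7, and 31 regions lay above 90 and 58 below 10.

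The strength order within the newly open regions was held in common by the vectors. Across the 1992 regions, mean ranks at day 5 correlated with r = 0.846 to 0.855 between pairs of vectors and at day 10 with r = 0.726 to 0.733. Between the days, r was 0.698. The means compared between vectors were over 4 libraries each and those compared between days over 12. The r between the days therefore cannot be set directly against those between vectors. These are correlations across regions that share libraries and depth within each day, given as a description. Ranks were noisier at day 10, with a median SD within groups of 0.661 normal-score units against 0.559 at day 5. In regions called in all 28 libraries, the same SDs were 0.588 and 0.527.

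Wild-type Tet2, the stalling mutant and the empty vector were compared to ask whether the form of Tet2 returned to Tet2-/- cells changed the strength of these regions. No region passed in any of the 3 contrasts of vectors, neither among the newly open regions nor among all 10711 (0.0% called in each direction, limma adjusted over all 10711 regions). At an unadjusted p under 0.05, 125 of the 1992 differed between Tet2-WT and the empty vector, 108 between Tet2-E and the empty vector and 122 between Tet2-E and Tet2-WT. These were 6.28%, 5.42% and 6.12% of the newly open regions, near the 5.02%, 5.1% and 4.75% of all regions. The lowest adjusted p among newly open regions was 0.499, 0.560 and 0.971. Median differences over the newly open regions were 0.07, 0.04 and −0.03. Tet2-WT minus empty vector thus had a median above 0, beside −0.01 over all regions. A p that misses the threshold does not show that the vectors acted alike. On simulated data with 200 changed regions, the contrast of Tet2-WT and empty vector recovered 100% of changes of 1 in the log2 of the fold. It recovered 77.5% of changes of 0.5 and 2% of changes of 0.25. The simulation had no peak threshold and no differences in depth, so these shares need not hold for the real lists.

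The newly open region with the smallest p for a vector was chr9:70125492-70125873. Its rank percentile was 2.59, 17.3 and 41.8 with the empty vector (lowest, median and highest of 8 libraries), 32.9, 53.5 and 84.6 with Tet2-WT and 7.43, 18.2 and 65.8 with Tet2-E. Tet2-WT stood above both others at the median, but its libraries overlapped with each of them. The difference from the empty vector was 1.20 ± 0.27 (limma adjusted p = 0.499), and Tet2-E minus Tet2-WT was −1.05 ± 0.27 (adjusted p = 0.971).

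For Tet2-E against the empty vector, chr16:22505588-22506188 was the highest in the order of p. Its 8 Tet2-E libraries (30.7, 52.8 and 74.7) lay above its 8 empty vector libraries (1.61, 12.9 and 28.1) without overlap, and Tet2-WT was between them (2.77, 31.2 and 50.4). Since a small p chose this region, its lack of overlap is a description. Other regions without overlap between vectors were not counted. The difference at chr16:22505588-22506188 was 1.24 ± 0.29 and did not pass (limma adjusted p = 0.560). In the opposite direction, chr12:78290187-78290559 had medians of 95.1 with the empty vector and 63.6 with Tet2-E (adjusted p = 0.713). The lowest with Tet2-WT against the empty vector was chr11:86711806-86712247, with medians of 34.1 and 67.6 (adjusted p = 0.660). At chr13:44031905-44032435, the medians were 42.2 with Tet2-E and 13.2 with Tet2-WT (adjusted p = 0.971). All of these remain values of single regions whose difference did not pass correction.

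The move from day 5 to day 10 was also fitted within each vector. The number of regions called within a single vector moved by more than 1.5 times when single libraries were left out, so those counts are not given. The median differences over the newly open regions were −0.27 for the empty vector, −0.22 for Tet2-WT and −0.24 for Tet2-E. Interaction terms, which test whether the day difference itself differed between vectors, called 0 regions (0.0%) in each of the 3 pairs in limma (lowest adjusted p over all regions 0.475 to 0.770). At an unadjusted p under 0.05 they gave 99 newly open regions for Tet2-WT against the empty vector, 89 for Tet2-E against the empty vector and 109 for Tet2-E against Tet2-WT, or 4.97%, 4.47% and 5.47%, beside 4.44%, 4.51% and 4.54% of all regions.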

How the data were processed

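ATAC-seq libraries (28, in 7 groups of 4 taken from the labels) were deposited as 1 peak list each. Per the submitters' processing notes, the tools were Bowtie2, SAMtools, bedtools and MACS2 and the build was mm9. Tool versions, parameters, filtering of reads and any shifting of reads to the cut site were not given in the sources used here. The authors' files give each peak a fold (a ratio of summit pileup to local background, 1 added to each), a −log10 p, a −log10 q, a score (the deposited −log10 q times 10) and a summit position. No gene annotation or genome of mm9 was used here, so positions carry no gene names or sequences. Coordinates are mm9, counted from 1.

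The newly open regions, the named regions and the tests were chosen with earlier results of these data known. Regions were merged and ranked with Python 3.11.15 (numpy 2.4.6, pandas 2.3.3, scipy 1.17.1). Whole-number summit pileups were recovered from the authors' fold and −log10 p for 100% of peaks (tolerance 0.0002 in −log10 p), and the commonest background value of a list was taken as its relative depth. This number is an inference, not a read count. Normal scores of the ranks over the 10711 regions called in all 24 later libraries were fitted with limma 3.58.1 (R 4.3.3), with 6 groups of vector and day, and p-values were adjusted by the Benjamini-Hochberg method over all 10711 regions. MEF libraries have no value in this fit. Named regions were the 6 with the smallest p in each direction for the days among those past 0.05, the 1 with the smallest p in each direction for each vector contrast, the 3 with the highest median rank, and those in the 3 windows of 100 kb with most members (ties broken by median rank). The exact permutation tests planned for the share in the strongest peaks and for the relative width were not made, since members chosen by calls get no p for a summary over them. The fit was tested on simulated data with 200 of 10711 regions changed. There the day contrast recovered 9%, 91.5% and 100% of log2 changes of 0.25, 0.5 and 1. The simulation had no peak threshold and no differences in depth, so these shares need not hold for the real lists.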

Additional observations from a re-analysis of the deposited data

How the results depend on the processing

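The count of newly open regions was 1313 with peaks of −log10 q 5 or more. It was 154 where peaks had to cover 50% of a region, and 1426 with lists of equal length (1176 of them among the 1992). Without a replicate number it was 2149 to 2745, where fewer libraries can only add regions. Calling by summits gave 1992, a result fixed in advance because every summit lies within the region of its own peak. For day 10 against day 5 in limma, newly open regions called higher and lower (main counts 51 and 276) numbered 106 and 374 with ranks of −log10 p, 93 and 222 with regions called in at least 20 of 24 libraries, 1 and 1 with depth as a covariate, 167 and 582 with ranks of the summit pileup, and 26 and 145 without the day 10 libraries numbered 3 and 4. Over all regions (252 and 447 of 10711) the counts were 424 and 655, 995 and 1283, 3 and 2, 861 and 1085, and 97 and 230 in the same order (995 and 1283 are of 19063 regions), with 160 higher without the day 10 libraries numbered 4. Ranking the summit pileup, leaving out day 10 libraries by number and leaving out single libraries were chosen after seeing the data. Without 1 library or 1 replicate number, newly open regions called numbered 21 to 51 higher and 131 to 274 lower, and all regions 81 to 235 and 200 to 454; fewer samples entered these fits. The median difference over the newly open regions was −0.12 with regions called in at least 20 of 24 libraries, −0.13 with depth as a covariate and −0.28 to −0.22 without a replicate. No vector contrast called a newly open region under any of these settings.

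The replicate block gave 57 higher and 282 lower newly open regions, and 263 and 455 over all regions. Correlations of same-numbered libraries were −0.0389 to 0.0856 over 15 pairs of groups, and 23 of 60 comparisons were best with their own number. Between day 10 Tet2-WT and day 10 Tet2-E all were above 0 (0.0387 to 0.0577, 4 of 4 best with their own number). All were also above 0 for the empty vector at day 10 with Tet2-WT (0.0178 to 0.0442, 3 of 4). With Tet2-E they were 0.00951 to 0.0224 (2 of 4). From replicate 1 to 4, day 10 background pileup fell from 0.506 to 0.420 (empty), 0.619 to 0.395 (Tet2-WT) and 0.768 to 0.361 (Tet2-E). No pair of groups reached the bar of 0.1 in every pair, so the numbers were not taken to pair the samples.

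The share kept among the strongest peaks differed between day 10 and day 5 by −5.94 percentage points with 10000 peaks, against 1.47 with 27809, and by 0.474 to 2.49 without a replicate. Tet2-WT minus empty vector was 1.93 points with 10000 peaks. With the width of all peaks of a library as the denominator, the relative width differed by −0.421 between the days, 0.0870 for Tet2-WT minus empty vector and −0.0719 for Tet2-E minus Tet2-WT. Between the days it differed by −0.176 to −0.151 without a replicate. The cause of these shifts was not tested. The alternative windows for sequence were not run, as no genome of the files' build was used. The 4 later lists that miss most neighbouring regions are also the shallowest, and the part of depth in the counts was not tested.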
